A study of Mus musculus with 12 samples.

Results

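Common lymphoid progenitors (CLP) sorted in the second of 2 batches were compared with those sorted in the first. The 4 CLP libraries, 2 in each batch by their titles, were chosen from the 12 bulk RNA-seq libraries of the series. All came from the bone marrow of wild-type female C57Bl/6J mice, an inbred laboratory strain. The CLP gate was the same in both batches, Lin- Sca1lo cKitlo IL7Ra+ Flk2+, where Lin stands for markers of mature blood cells and Flk2 is the protein of Flt3. The reference for what a batch does to any sort was the same difference in 4 libraries of lymphoid-primed multipotent progenitors (LMPP, Lin- Sca1+ cKit+ CD150- CD34+ Flk2hi) and 4 of granulocyte-monocyte progenitors (GMP, Lin- Sca1- cKit+ CD150- CD34+ FcgR+), again 2 in each batch. By the submitters' protocol text, which describes single-cell LMPP work, cells with CD3e, CD11b, B220, Gr-1 or TER-119 were depleted before staining. The titles give the batch as a number only, and the labels do not say what a batch is. The labels state neither donor age nor cells per library, nor whether the 2 libraries of a batch came from separate animals, so each p-value reflects only how these samples spread, and that spread may be technical. Batch and any difference between the sorted cells cannot be told apart within CLP alone.

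CLP are marrow progenitors that give rise mainly to lymphocytes, and within their gate cells differ in how far they have moved towards the B lineage. Commitment to B cells runs through the transcription factors E2A (Tcf3), Ebf1, Foxo1 and Pax5, which switch on the surrogate light chain and the signalling chains of the pre-B cell receptor, while Flt3 is switched off. Cytokine signals through the interleukin 7 receptor sustain both CLP and the dividing pro-B cells that follow them.

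In these 4 libraries batch 2 carried more transcript of many pro-B cell genes and of cell division. Batch 1 carried more of Flt3, Cd34, Cd27, Notch1 and of several genes of stem cells and of dendritic cells. The B lineage genes did not all rise, and Rag1, Rag2, Dntt and Ly6d were not called in CLP. Transcripts of Igll1, Ebf1 and Pou2af1 were also present in CLP batch 1 replicate 1, at lower levels than in batch 2. Of 12213 genes tested, 2884 (23.6% of genes tested) were higher in batch 2 and 1461 (12%) were lower at an adjusted p under 0.05 in limma. The same batch difference gave 283 higher (2.32%) and 311 lower (2.55%) genes in LMPP, and 810 (6.63%) and 274 (2.24%) in GMP. The difference in CLP minus the mean of the differences in LMPP and GMP is termed the excess below. At the same threshold it was called positive for 918 genes (7.52%) and negative for 592 (4.85%). Of the genes tested, 865 were called higher and 530 lower both in CLP and in the excess. Counts of called list members below are to be read beside the shares of all tested genes given here. All values are TPM, the share of a library's transcripts that a gene takes after correction for length, and differences are batch 2 minus batch 1 on the log2(TPM + 1) scale, which understates the change of genes near 0.

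Across genes, r between the 2 CLP libraries of a batch was 0.960 in batch 1 and 0.924 in batch 2, and it was 0.839 to 0.882 across batches, beside 0.902 to 0.920 across batches in LMPP and 0.954 to 0.959 in GMP. These correlations are over genes, which are not independent replicates. The median difference over all tested genes was 0.15 in CLP, 0.14 in LMPP and 0.22 in GMP. With median-ratio scaling the CLP median was -0.01 and the calls split into 2171 higher and 1981 lower, and with quantile normalization into 1914 and 1923, so the majority of higher calls depends on the scaling. CLP libraries listed 11163 to 12144 genes at 1 TPM or more. Leaving out CLP batch 1 replicate 2 gave 1689 higher and 757 lower genes, and leaving out CLP batch 2 replicate 1 gave 3037 and 2285, beside 917 lower genes without CLP batch 1 replicate 1. In the excess the counts ran from 316 higher and 201 lower without CLP batch 1 replicate 2 to 1499 and 1707 without CLP batch 2 replicate 1.

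Some markers of mature blood cells moved with the batch as well, upwards in CLP and LMPP and downwards in GMP. The summed TPM of 21 mature neutrophil and macrophage genes was 192 and 32.0 in CLP batch 1 and 12722 and 2047 in CLP batch 2. That of 17 erythroid and globin genes was 680.1 and 141.8 in batch 1 and 14059 and 2728 in batch 2. LMPP showed the same order, with 27400 and 1948 for the neutrophil list in batch 2 against 254 and 70.4 in batch 1. GMP showed the opposite order. Its neutrophil sums were 1351 and 1594 in batch 1 and 158.7 and 451.5 in batch 2. Its erythroid sums were 1205 and 1381 in batch 1 and 130.4 and 284.9 in batch 2. The part of such cells in the differences below was not tested. In bulk RNA fewer cells of a type and less transcript per cell cannot be told apart.

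Of the 4 genes of the CLP gate, Flt3 fell, Kit rose, and Il7r and Ly6a passed in neither direction. Flt3, a cytokine receptor kinase of early lymphoid progenitors, measured 138 and 146 TPM in the batch 1 libraries and 8.91 and 17.0 TPM in those of batch 2. Both batch 2 libraries lay below every LMPP library (102 to 156 TPM) and above every GMP library (2.80 to 3.67 TPM). The difference was -3.42 ± 0.259 (SE, limma adjusted p = 3.02e-05), and the excess was -3.64 (adjusted p = 0.000291). Cd34, a sialomucin of stem and progenitor cells that is in the LMPP and GMP gates but not in the CLP gate, measured 111 and 164 TPM in the batch 1 libraries and 17.0 and 14.9 TPM in those of batch 2. It fell by 3.01 on the log2 scale (adjusted p = 1.22e-05), with an excess of -2.94. Both excess calls held in all 12 fits that leave out 1 library, with adjusted p up to 0.00414 for Flt3 and 0.0022 for Cd34.

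Il7r, the gate's interleukin 7 receptor chain, was at 86.5 and 82.3 TPM in batch 1, then at 76.6 and 129.8 TPM in batch 2. Those levels overlapped (difference 0.24 ± 0.272, adjusted p = 0.526), and all 4 lay above the LMPP libraries (5.14 to 11.3 TPM). Kit, the stem cell factor receptor, was at 15.3 and 20.9 TPM and then at 27.6 and 46.7 TPM, a difference of 0.97 (adjusted p = 0.0167) with no call in the excess (0.68, adjusted p = 0.192). The Kit call ended without CLP batch 1 replicate 1 or CLP batch 2 replicate 2 (adjusted p up to 0.114). Ly6a, which encodes Sca-1, was at 37.6, 29.9, 27.3 and 2.24 TPM over the 4 libraries, and the low value was that of CLP batch 2 replicate 2 alone. Thus transcripts of the gated receptor Il7r were present in every CLP library, while those of Flt3 were low in both libraries of batch 2.

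**Figure D1:**
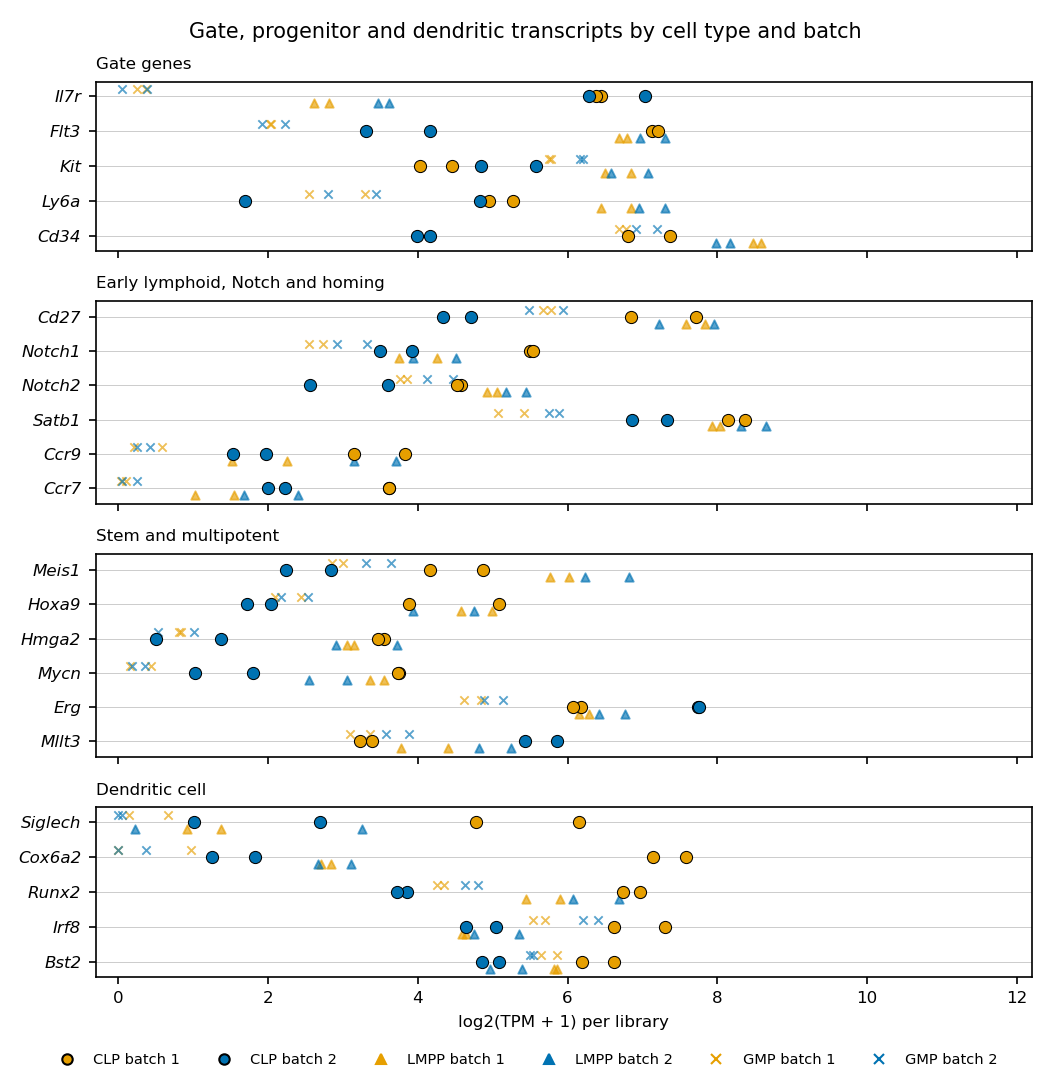
Level of 22 transcripts in each library as log2(TPM + 1), with CLP as circles, LMPP as triangles and GMP as crosses, and batch 1 in orange and batch 2 in blue. CLP batch 2 lies below CLP batch 1 for Flt3, Cd34, Cd27 and Runx2, overlaps it for Il7r, and lies above it for Erg and Mllt3.

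The 250 bases upstream of the annotated starts of Flt3 and Cd34, the 2 gate genes called lower in the excess, are printed from RefSeq (build GRCm38.p6) so that the sequence next to a start can be read beside its values. The windows are chr5:147400490-147400739 on the minus strand for Flt3 and chr1:194938571-194938820 on the plus strand for Cd34, 5′ to 3′ along the gene. Capitals would mark a match on either strand to 4 motifs: CCCNNGGG for EBF, CAGGTG for an E-box, TGTGGT for RUNX and GTAAACA for FOXO. Neither window holds a match, which says only that these letters are not in it.
Flt3: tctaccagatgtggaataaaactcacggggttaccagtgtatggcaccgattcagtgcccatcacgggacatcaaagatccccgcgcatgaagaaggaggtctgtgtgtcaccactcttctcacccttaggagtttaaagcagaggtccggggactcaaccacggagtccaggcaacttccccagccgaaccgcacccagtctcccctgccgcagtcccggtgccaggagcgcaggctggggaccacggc
Cd34: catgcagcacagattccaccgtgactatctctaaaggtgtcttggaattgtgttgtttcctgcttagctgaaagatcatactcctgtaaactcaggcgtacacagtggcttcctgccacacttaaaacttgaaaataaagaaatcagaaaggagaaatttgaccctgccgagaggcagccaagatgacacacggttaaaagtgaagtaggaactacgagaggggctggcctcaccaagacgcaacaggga

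Transcripts of the pre-B cell receptor, the signalling complex built around the first rearranged heavy chain, were higher in batch 2. Of 15 genes of the receptor and its signalling, 11 were higher in batch 2, none was lower, and 5 were also called in the excess. The 5 became 1 with LMPP alone as the reference, 2 with GMP alone and 2 under quantile normalization. The median difference of the list was 2.06, beside 0.15 over all genes. Its summed level was 1892 and 825.6 TPM in CLP batch 1 and 5829 and 7193 TPM in CLP batch 2. LMPP stood at 373 to 955 TPM and GMP at 241 to 364 TPM. The highest LMPP sum of this list, 954.5 TPM, was that of the LMPP library with the most neutrophil transcript (27400 TPM). The part of mature cells in these sums was not tested.

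The promoters of 4 members with large called differences are printed for the motifs of the factors named above (GRCm38.p6, 250 bases upstream, 5′ to 3′ along the gene). They are Igll1 at chr16:16863986-16864235 (minus), Vpreb3 at chr10:75948050-75948299 (plus), Vpreb1 at chr16:16869256-16869505 (minus) and Cd79a at chr7:24897247-24897496 (plus). Capitals mark the matches.
Igll1: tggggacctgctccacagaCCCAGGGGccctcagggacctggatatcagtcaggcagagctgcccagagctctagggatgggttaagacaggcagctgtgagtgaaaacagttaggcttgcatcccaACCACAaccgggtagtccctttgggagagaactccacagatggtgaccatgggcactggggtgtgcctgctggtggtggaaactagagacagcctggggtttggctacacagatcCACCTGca
Vpreb3: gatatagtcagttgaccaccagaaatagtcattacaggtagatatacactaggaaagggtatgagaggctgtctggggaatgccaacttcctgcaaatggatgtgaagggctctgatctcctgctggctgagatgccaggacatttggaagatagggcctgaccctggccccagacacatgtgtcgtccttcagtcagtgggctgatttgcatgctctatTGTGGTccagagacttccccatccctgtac
Vpreb1: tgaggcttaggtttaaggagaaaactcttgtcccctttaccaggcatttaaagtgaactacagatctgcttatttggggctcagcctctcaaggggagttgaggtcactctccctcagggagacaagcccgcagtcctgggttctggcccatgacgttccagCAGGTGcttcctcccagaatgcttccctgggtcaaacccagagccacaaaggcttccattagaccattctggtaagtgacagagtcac
Cd79a: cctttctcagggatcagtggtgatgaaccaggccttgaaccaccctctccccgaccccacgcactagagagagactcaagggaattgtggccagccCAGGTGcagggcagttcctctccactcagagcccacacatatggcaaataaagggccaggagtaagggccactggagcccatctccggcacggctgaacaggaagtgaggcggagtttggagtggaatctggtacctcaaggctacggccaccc
Igll1 held an EBF match starting 231 bases before the start, a RUNX match at 123 and an E-box 8 bases before it. An E-box began 88 bases before the start of Vpreb1 and 154 bases before that of Cd79a, and a RUNX match 30 bases before that of Vpreb3. Such matches are common: of 32851 promoter windows of this length in the table, 11.8% held the EBF motif, 17.2% the E-box, 14.0% the RUNX motif and 3.17% the FOXO motif. Among windows of genes called higher in CLP and in the excess, 16.1% held the EBF motif and 11.9% the E-box, against 15.3% and 14.8% among windows of all tested genes. A match is a description of the letters and not a bound site.

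Igll1, the lambda 5 chain of the surrogate light chain, measured 315 and 0.13 TPM in the batch 1 libraries and 2222 and 2677 TPM in those of batch 2. Its 2 batch 1 libraries were far apart, the second at the level of LMPP (0 to 11.02 TPM). The difference was 7.01 ± 1.86 (adjusted p = 0.0151), and the excess of 5.89 passed no threshold (adjusted p = 0.116). The SE and p-values of each gene pool the spread of its CLP, LMPP and GMP libraries. They do not measure the spread within CLP alone, which was wide for Igll1 in batch 1. Vpreb1, the partner of Igll1, followed the same order at 132, 1.33, 479 and 726 TPM (5.07, adjusted p = 0.0163). Vpreb3, which binds nascent immunoglobulin chains, was at 170.1 and 1.2 TPM and then at 664 and 932 TPM (5.34, adjusted p = 0.0209). Cd79a, a signalling chain of the receptor, was at 83.8 and 0.82 TPM and then at 295 and 345 TPM (4.69, adjusted p = 0.0186). All 4 genes thus shared the split of batch 1 into a library with these transcripts and a library almost without them. Their excesses, 4.28 to 5.89, were not called. Vpreb2, whose transcript is 86.8% identical to that of Vpreb1 so that reads can be shared, was at 36.9, 0.63, 41.9 and 54.5 TPM and was not called (adjusted p = 0.0813).

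Cd79b, the second signalling chain, was at 73.1 and 23.1 TPM and then at 252 and 341 TPM, with an excess of 2.65 (adjusted p = 0.0312). Blnk, the adaptor of the receptor, was at 111 and 60.4 TPM and then at 318 and 377 TPM, with an excess of 1.49 (adjusted p = 0.0275). The kinase gene Btk (0.91, adjusted p = 0.0153) and the adaptor gene Pik3ap1 (1.56, adjusted p = 0.0186) were also called in the excess. Of all 15 genes of the list, 13 lay higher in batch 2 without overlap, beside 39.2% of all tested genes. Ighm, the mu heavy chain, was high throughout (780.1 and 620.4 TPM, then 1114 and 1279 TPM). Its difference was 0.78 (adjusted p = 0.00815), beside 1.35 in LMPP, with an excess of -0.24, and the CLP call ended without CLP batch 1 replicate 2 (adjusted p = 0.0747).

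Leaving out 1 library at a time gave between 7 called members of the pre-B cell receptor and signalling list (without CLP batch 2 replicate 2) and 13 (without CLP batch 1 replicate 1) for the CLP difference. For the excess it gave between 0 (without CLP batch 1 replicate 2) and 9 (without CLP batch 1 replicate 1). Without the first of these, CLP batch 1 replicate 2, the Igll1 difference was 2.95, and without CLP batch 1 replicate 1 it was 11.08. The calls of Igll1, Vpreb1 and Cd79a ended without CLP batch 2 replicate 2 (adjusted p 0.0568, 0.0681 and 0.067). That of Vpreb3 ended without CLP batch 2 replicate 2 or CLP batch 1 replicate 2 (adjusted p up to 0.082). Without the haemoglobin-rich pair, CLP batch 2 replicate 1 and LMPP batch 2 replicate 1, 8 members were called in CLP and 5 in the excess. Cd79b was called in the excess in 4 of the 12 fits that leave out 1 library, Blnk in 6, Btk in 10 and Pik3ap1 in 11.

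**Figure D2:**
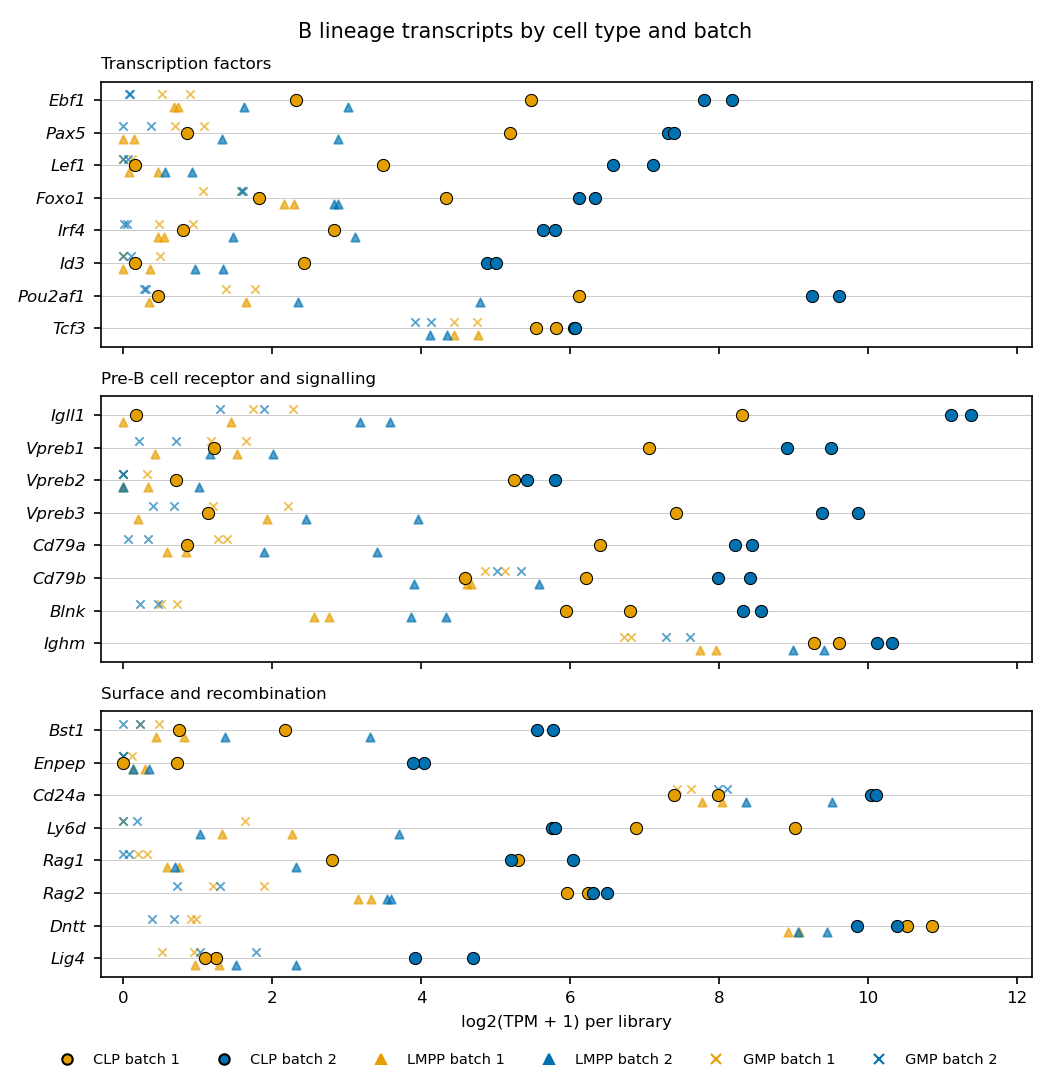
Level of 24 B lineage transcripts in each library as log2(TPM + 1), with CLP as circles, LMPP as triangles and GMP as crosses, and batch 1 in orange and batch 2 in blue. The 2 CLP libraries of batch 2 sit close together on the right for Ebf1, Pax5 and Igll1, the 2 of batch 1 are far apart, and Rag2 and Dntt differ little.

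Of 27 lymphoid and B lineage transcription factors, 12 were higher in CLP batch 2 and 5 lower, with 7 and 2 called in the excess. The 7 became 1 without CLP batch 2 replicate 2, 1 with LMPP alone as the reference and 4 under quantile normalization. The 5 lower calls became 3 without CLP batch 1 replicate 1, CLP batch 1 replicate 2 or CLP batch 2 replicate 2, and 8 under quantile normalization. Ebf1, which specifies the B lineage, was at 43.4 and 4.00 TPM in batch 1, then at 222 and 288 TPM in batch 2. It rose by 4.09 ± 0.807 (adjusted p = 0.00368), with an excess of 3.60 (adjusted p = 0.0421). Pax5, which commits cells to it, was at 35.6 and 0.81 TPM and then at 158 and 168 TPM. Its difference of 4.33 was called (adjusted p = 0.0105) and its excess of 3.67 was not (adjusted p = 0.0908). Pou2af1, a B cell coactivator of octamer-binding factors, was at 68.8 and 0.38 TPM and then at 609 and 782 TPM (6.14, adjusted p = 0.00805; excess 5.49, adjusted p = 0.0669). These factors showed the same wide spacing of the batch 1 libraries as the receptor genes, and their p-values rest on the same spread pooled over cell types.

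Lef1, a partner of beta-catenin found in pro-B cells, was at 10.3 and 0.12 TPM in batch 1, then at 94.7 and 138 TPM in batch 2 (excess 4.80, adjusted p = 0.0139). Irf4, which acts in pre-B cells, was at 6.09 and 0.75 TPM and then at 48.6 and 54.8 TPM (excess 3.35, adjusted p = 0.023). Foxo1, an activator of the recombination genes, was at 19.1 and 2.56 TPM and then at 68.3 and 79.5 TPM (excess 2.70, adjusted p = 0.0429). Id3, an inhibitor of E proteins (excess 3.26, adjusted p = 0.0192), and the repressor gene Gfi1 (1.34, adjusted p = 0.0363) were also called. Tcf3, which encodes the E2A proteins, was at 55.2 and 45.6 TPM and then at 65.6 and 66.2 TPM, with no call in CLP (0.39, adjusted p = 0.146) and a call in the excess (0.85, adjusted p = 0.0434).

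Irf8, a factor of dendritic cells, monocytes and B cells, went the other way at 157 and 97.7 TPM in batch 1, then 32.0 and 23.9 TPM in batch 2 (-2.12, adjusted p = 0.000312; excess -2.68). Ikzf1, which encodes Ikaros, was at 200.1, 217, 149 and 181 TPM, with an excess of -0.82 (adjusted p = 0.0301) and no call in CLP (adjusted p = 0.14). Spi1, which encodes PU.1, Sox4, Pou2f2 and Zbtb17 were the other factors that fell in CLP, by 1.06, 1.80, 1.54 and 1.09 on the log2 scale. Levels of Bcl11a, Runx1, Myb, Tcf4, Stat5a and Stat5b passed the test in neither direction. Lef1 and Irf8 kept their call in the excess whichever of the 12 libraries was left out. Ebf1 kept it in 3 of 12 fits (adjusted p 0.00257 to 0.103), Foxo1 in 2 (0.00125 to 0.1), Irf4 in 6 (0.00935 to 0.0926), Gfi1 in 4, Tcf3 in 3 and Ikzf1 in 5. Id3 lost it without CLP batch 2 replicate 2 (adjusted p = 0.0511). In CLP the calls of Spi1, Pou2f2 and Zbtb17 were kept in 10, 9 and 10 of the fits and that of Sox4 in all 12.

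Of 15 V(D)J recombination genes, 4 were called higher in CLP batch 2 and none was called lower. The median difference of the list was 0.82, beside 0.15 over all genes. Without overlap between batches, 9 of the 15 lay higher and 1 lower, beside 39.2% and 24.4% of all tested genes. The recombinase subunits and Dntt were not among the called genes. Rag1, a subunit of the recombinase, was at 38.5, 6.00, 35.8 and 64.6 TPM (1.56 ± 0.731, adjusted p = 0.122). Rag2, the other subunit, was at 74.9, 61.4, 78.2 and 89.0 TPM (0.30 ± 0.28, adjusted p = 0.443). Dntt, the polymerase that adds bases at the joints, was at 1468 and 1848 TPM in batch 1, then 922 and 1341 TPM in batch 2 (-0.57 ± 0.211, adjusted p = 0.0602). Called in the excess were Hmgb1 (1.74) and Hmgb2 (2.12), DNA-bending proteins also abundant in dividing cells, and the ligase gene Lig4. Lig4 was at 1.37 and 1.14 TPM in batch 1, then at 14.2 and 24.9 TPM in batch 2, with an excess of 2.41 (adjusted p = 0.0149) that ended without CLP batch 1 replicate 2 (adjusted p = 0.0704).

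Among 14 B lineage surface genes, 6 rose and 2 fell in CLP, and 3 and 2 were called in the excess. The 6 became 3 without CLP batch 1 replicate 2, and the 3 in the excess became 1 without that library or with LMPP alone as the reference. Bst1, the BP-3 antigen of early B cells, was at 3.52 and 0.68 TPM in batch 1, then at 53.7 and 46.1 TPM in batch 2 (excess 3.47, adjusted p = 0.0163). Enpep, the BP-1 antigen of late pro-B and pre-B cells, was at 0.66 and 0 TPM and then at 15.5 and 13.8 TPM (excess 3.62, adjusted p = 0.000858). Of the 14 genes, 3 passed the filter through batch 2 alone, Enpep among them, which fixed their direction in CLP. Cd24a, the heat-stable antigen, was at 252 and 167 TPM and then at 1049 and 1104 TPM (excess 1.62, adjusted p = 0.0244). Ly6d, the surface marker of B-biased CLP, had its highest level in batch 1 at 516 and 117 TPM, against 53.4 and 54.8 TPM in batch 2. That difference of -2.17 ± 0.894 was not called (adjusted p = 0.0841), and no library of one batch overlapped the other. Lax1 and Cd180 were called lower in CLP and in the excess. Bst1 lost the excess call without CLP batch 1 replicate 2 (adjusted p = 0.0852), and Cd24a kept it in 6 of 12 fits and Cd180 in 5. Lax1 lost it without CLP batch 1 replicate 1 (adjusted p = 0.0731). Enpep kept it in all 12.

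Of 6 mature B and plasma cell genes tested, 4 were higher and 1, Sdc1, was lower in CLP batch 2, 4 were higher in the excess, and 1, Igkc, was higher in LMPP. The median difference was 3.48 in CLP and 0.93 in LMPP. Igkc, the kappa light chain constant region, was at 28.9 and 2.39 TPM in CLP batch 1 and at 997 and 381 TPM in CLP batch 2. In LMPP it was at 204 and 100.3 TPM in batch 1, then at 2669 and 1105 TPM in batch 2. The CLP difference was 5.94 ± 0.891 (adjusted p = 0.000842) and the excess 4.23 (adjusted p = 0.0329), although the highest levels of all were those of LMPP batch 2. Ms4a1, which encodes CD20, was listed at 0 in both batch 1 libraries and stood at 6.51 and 18.6 TPM in batch 2. Ms4a1 thus passed the filter through batch 2 alone, which fixed its direction in CLP. Jchain, the joining chain of secreted antibodies, was at 0.83, 1.30, 16.8 and 24.3 TPM. Summed over the list of mature B and plasma cell genes, CLP stood at 103 and 54.5 TPM and then at 1098 and 480.6 TPM. The 204 immunoglobulin variable genes summed to 140.5 and 112 TPM in CLP batch 1 and 836 and 440.3 TPM in CLP batch 2, beside 1458 and 621 TPM in LMPP batch 2. Without CLP batch 1 replicate 2, or without GMP batch 1 replicate 2, or with LMPP alone as the reference, none of the 4 excess calls of the list remained.

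The early lymphoid genes that changed in CLP changed mostly downwards: of 18, 7 were lower and 1 was higher in batch 2, and 7 were lower in the excess. Cd27, a co-stimulatory receptor of the TNF receptor family, was at 114 and 209 TPM in batch 1, then at 19.2 and 25.3 TPM in batch 2 (-2.75 ± 0.312, adjusted p = 0.000203; excess -2.69). Satb1, a chromatin organiser of lymphoid progenitors, was at 282 and 330 TPM and then at 116 and 160 TPM (excess -1.70, adjusted p = 0.00263). Flt3, Notch1, Ccr7 and Ccr9 were also among the 7. Of all 18, 10 lay lower in batch 2 without overlap and 2 higher, beside 24.4% and 39.2% of all tested genes. No gene of the list was called lower in LMPP, and Ccr9 was called higher there. Leaving out 1 library gave 6 to 9 called members of the early lymphoid list in the excess.

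Of 11 Notch pathway genes, Notch1, Notch2 and Mfng were lower in CLP batch 2 and in the excess, where 1 was called without CLP batch 1 replicate 2. Notch1, the receptor that drives T cell commitment, was at 44.3 and 45.4 TPM in batch 1, then at 14.2 and 10.3 TPM in batch 2 (-1.81 ± 0.277, adjusted p = 0.000949; excess -2.16). The batch 2 values lay within the range of LMPP (12.4 to 21.8 TPM) or just below it. Notch2 was at 22.9, 21.98, 11.2 and 4.91 TPM (excess -1.86, adjusted p = 0.0116). Tcf7, a T lineage factor also found in innate lymphoid precursors, went up from 1.86 and 1.2 TPM to 7.70 and 20.3 TPM (2.44, adjusted p = 0.00234; excess 2.54, adjusted p = 0.0159). Hes1, a Notch target, was low throughout at 1.57, 1.01, 4.26 and 3.49 TPM and was called higher in CLP only (adjusted p = 0.0381). The excess calls of Notch2 and Tcf7 ended without CLP batch 1 replicate 2 (adjusted p 0.0541 and 0.0788), Mfng kept its call in 2 of 12 fits, and Notch1 in all 12. Hes1 kept its CLP call in 4 of 12.

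Homing genes of the thymus and lymph node routes were among those that fell. Of 14 homing and adhesion genes, 5 were lower in CLP batch 2 and 3 higher, and 6 were lower in the excess, or 3 with GMP alone as the reference. Leaving out CLP batch 1 replicate 2 left 1 higher in CLP. Ccr9, a chemokine receptor of thymus-seeding cells, was at 13.2 and 7.88 TPM and then at 2.91 and 1.90 TPM (excess -2.48, adjusted p = 0.00964). Ccr7, which works with it, was at 11.2 and 11.2 TPM and then at 3.69 and 3.01 TPM (excess -1.91, adjusted p = 0.0155). Selplg, the P-selectin ligand, was at 86.7 and 84.6 TPM and then at 47.9 and 43.2 TPM (excess -1.41, adjusted p = 0.00188). Cd44 was at 123 and 178 TPM and then at 84.6 and 80.6 TPM (excess -1.11, adjusted p = 0.0103). Cxcr4, the receptor that holds B cell precursors in marrow, was at 168 and 112 TPM and then at 219 and 222 TPM. Its CLP call (0.68, adjusted p = 0.0427) was kept in 3 of 12 fits that leave out 1 library, and it had no call in the excess. Ccr7 lost the excess call without CLP batch 1 replicate 2 (adjusted p = 0.0665).

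Of 24 stem and multipotent cell genes, 18 passed the filter of 1 TPM in 2 CLP libraries. Of these, 10 were lower in CLP batch 2 and 2 higher, and 7 and 2 were called in the excess. The summed level of all 24 genes did not fall, at 300.2 and 367.5 TPM in CLP batch 1 and 413 and 386.7 TPM in CLP batch 2. Meis1, a homeobox partner of the Hox factors, was at 17.0 and 28.3 TPM in batch 1, then at 6.18 and 3.72 TPM in batch 2 (excess -2.57, adjusted p = 0.00343). Hoxa9 was at 13.7 and 32.9 TPM and then at 3.13 and 2.29 TPM (excess -2.42, adjusted p = 0.0148). Hmga2, an architectural chromatin protein of early progenitors, was at 10.7 and 10.1 TPM and then at 0.42 and 1.59 TPM (excess -2.65, adjusted p = 0.00685). Mycn, a Myc family factor, was at 12.4 and 12.3 TPM and then at 1.04 and 2.49 TPM (excess -1.99, adjusted p = 0.0133).

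The members that rose were Erg and Mllt3. Erg, an ETS factor, was at 71.4 and 66.3 TPM in batch 1, then at 213 and 215 TPM in batch 2 (1.62 ± 0.163, adjusted p = 9.93e-05; excess 1.30, adjusted p = 0.00434). Both batch 2 values lay above every LMPP library (70.2 to 108 TPM). Mllt3, a component of transcription elongation complexes, was at 9.50 and 8.39 TPM and then at 42.2 and 57.2 TPM (excess 1.61, adjusted p = 0.0141). Without CLP batch 1 replicate 2 the stem and multipotent list had 6 lower calls in CLP and 2 in the excess, and the calls of Hoxa9, Mycn and Mllt3 ended (adjusted p 0.0704, 0.06 and 0.0716). Meis1, Hmga2 and Erg kept theirs in all 12 fits.

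Of 12 dendritic cell genes tested, 5 were lower and 3 higher in CLP batch 2, and the same 5 were lower in the excess. The summed level of the whole list overlapped between batches, at 1053 and 840.9 TPM in CLP batch 1 and 895.8 and 454.5 TPM in CLP batch 2. Cox6a2, a cytochrome oxidase subunit found in muscle and in plasmacytoid dendritic cells, was at 191 and 140 TPM in batch 1, then at 1.39 and 2.56 TPM in batch 2. Its fall was the largest of any protein-coding gene that the naming rule picked (-5.82 ± 0.375, adjusted p = 1.3e-05; excess -5.72, adjusted p = 0.000225). Siglech, a lectin of these cells, was at 70.2 and 26.5 TPM and then at 5.49 and 1.02 TPM (excess -3.72, adjusted p = 0.0496). Runx2, a factor active in them, was at 125 and 106 TPM and then at 13.5 and 12.17 TPM (excess -3.62, adjusted p = 0.000191). Bst2 was at 97.3 and 72.3 TPM and then at 33.1 and 28.01 TPM (excess -0.99, adjusted p = 0.0263). Irf8 was the other member called lower, and Tcf4, a factor of the same cells that is on another list, was called in neither direction. Leaving out 1 library gave 3 to 6 lower calls of the dendritic cell list in the excess, 3 without GMP batch 1 replicate 2, either GMP library of batch 2, LMPP batch 1 replicate 2, or either of CLP batch 1 replicate 1 and CLP batch 2 replicate 2, and 3 with LMPP alone as the reference. Leaving out CLP batch 2 replicate 2 gave 5 higher members in CLP.

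The 3 members called higher in CLP were Cd74, H2-Ab1 and Ly6c2, the first pair genes of antigen presentation by MHC class II, and none was called in the excess. Ly6c2, which has near copies, kept its CLP call in 4 of 12 fits, and Cd74 lost it without CLP batch 1 replicate 1 (adjusted p = 0.0553). Cd74 was at 21.9 and 24.7 TPM and then at 117 and 70.0 TPM. Its LMPP levels ran higher still in batch 2, at 144 and 463 TPM. In batch 1 CLP exceeded LMPP in Siglech (4.32, adjusted p = 0.0238), Cox6a2 (4.58), Runx2 (1.19) and Irf8 (2.34). In batch 2 CLP lay below LMPP in Cox6a2 (-1.35, adjusted p = 0.029) and Runx2 (-2.59, adjusted p = 0.000173). Siglech kept its excess call in 3 of 12 fits that leave out 1 library and Bst2 in 6, and Siglech lost the CLP call without CLP batch 1 replicate 1 or CLP batch 2 replicate 2 (adjusted p up to 0.0808). Cox6a2, Runx2 and Irf8 kept the excess call in all 12.

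T, NK and innate lymphoid genes were low and mixed. Of 17 tested, 7 were higher and 4 lower in CLP batch 2, and 1 each in the excess, Tcf7 upwards and Nfil3 downwards. Of the 17, 4 passed the filter through batch 2 alone, Cd3e among them, which fixed their direction in CLP. Cd3e, whose protein was a depletion target in the protocol text, was at 0.34 and 0 TPM in batch 1, then at 1.39 and 10.4 TPM in batch 2. Trac, the T cell receptor alpha constant region, was at 1.28, 0, 3.48 and 16.5 TPM. Without CLP batch 1 replicate 2 or CLP batch 2 replicate 2, 2 members of the T, NK and innate lymphoid list were called higher, and 1 was called lower without CLP batch 1 replicate 1 or CLP batch 2 replicate 2. For both genes the highest value was that of CLP batch 2 replicate 2, the library with the lower neutrophil sum of its batch. Klrd1, an NK receptor gene also found in dendritic precursors, was at 29.8 and 10.1 TPM and then at 6.50 and 0 TPM. The CLP calls of Cd3e and Trac ended without CLP batch 1 replicate 2 or CLP batch 2 replicate 2 (adjusted p up to 0.0983 and 0.184), and that of Klrd1 without CLP batch 1 replicate 1 or CLP batch 2 replicate 2 (up to 0.167). Nfil3 lost the excess call without CLP batch 1 replicate 2, CLP batch 2 replicate 2 or GMP batch 2 replicate 2 (up to 0.0991), and Tcf7 without CLP batch 1 replicate 2 (0.0788).

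Of 22 granulocyte-monocyte progenitor genes, 7 were higher in CLP batch 2 and 3 lower. Mpo, the peroxidase of primary granules, was at 178 and 209.7 TPM in batch 1, then at 1401 and 107 TPM in batch 2, so its batch 2 libraries lay on either side of batch 1 (1.0 ± 0.833, adjusted p = 0.376). Elane, neutrophil elastase, was at 3.42 and 1.79 TPM and then at 320 and 37.4 TPM (excess 4.25, adjusted p = 0.0198). Plac8 was at 1184 and 1055 TPM and then at 284 and 150.1 TPM (excess -1.95, adjusted p = 0.00418). Leaving out CLP batch 2 replicate 2 raised the higher calls of the granulocyte-monocyte progenitor list in CLP to 16, and leaving out CLP batch 2 replicate 1 gave 5 higher and 9 lower. Without CLP batch 1 replicate 2 none of its 3 higher calls in the excess was left. Elane lost its excess call without CLP batch 1 replicate 1 or CLP batch 1 replicate 2 (up to 0.0988), and Plac8 kept its call in all 12 fits.

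Many mature neutrophil and erythroid genes rose in CLP, and 1 gene of both lists was called in the excess. Of 17 neutrophil and macrophage genes tested, 12 were higher in CLP, 8 were higher in LMPP, and 0 were called in the excess. The median excess of that list was 2.53. Of the 17, 6 passed the filter through batch 2 alone, which fixed their direction in CLP. S100a9, a calcium-binding protein abundant in neutrophils, was at 76.1 and 6.02 TPM in CLP batch 1 and at 5061 and 879 TPM in CLP batch 2 (6.50, adjusted p = 0.016). Hbb-bs, an adult beta globin, was at 297, 7.86, 7882 and 1401 TPM (6.02, adjusted p = 0.0227). Of 14 erythroid and globin genes, 9 were higher in CLP, and only Car2, a carbonic anhydrase, was called in the excess (2.83, adjusted p = 0.00268). The median excess of the erythroid and globin list was 2.60, and 2 of the 14 passed the filter through batch 2 alone. The tissue macrophage gene Adgre1 was listed at 0 in 3 of the 4 CLP libraries and at 3.99 TPM in CLP batch 2 replicate 1. In that library Vcam1 (5.01 TPM), Cd14 (1.77 TPM) and C1qa (1.69 TPM) also had their highest CLP values. The endothelial, stromal and bone genes summed to 4.76 to 6.47 TPM in all 4. Without CLP batch 2 replicate 1, or without CLP batch 1 replicate 2, 6 mature neutrophil and macrophage genes and 1 erythroid and globin gene were called in CLP. The calls of S100a9 and Hbb-bs ended in both of these fits (adjusted p up to 0.138 and 0.196).

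**Figure D3:**
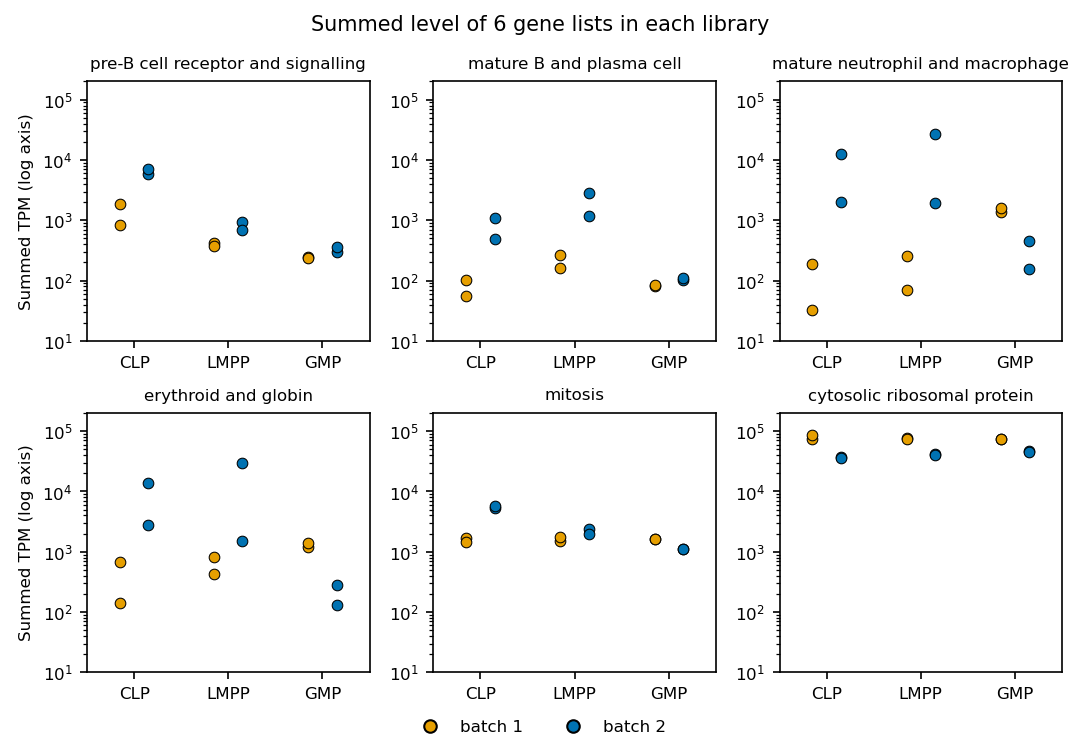
Summed TPM of 6 gene lists in each library on a log axis, by cell type, with batch 1 in orange and batch 2 in blue. The pre-B cell receptor and mitosis sums separate CLP batch 2 from all other libraries, the neutrophil and erythroid sums are high in batch 2 of CLP and LMPP, and the ribosomal protein sum is lower in batch 2 of all 3 types.

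Transcripts of cell division separated the 2 CLP batches completely. All 23 mitosis genes were higher in CLP batch 2, without overlap between batches (39.2% of all tested genes), and all 23 were called in the excess. Their differences ran from 1.17 to 2.52, with adjusted p up to 0.00982, and their excesses from 1.08 to 2.89, with adjusted p up to 0.0143. Summed TPM was 1720 and 1456 in CLP batch 1 and 5262 and 5694 in CLP batch 2, against 1528 to 2408 in LMPP and 1104 to 1659 in GMP. In LMPP, Kif11, Mki67 and Prc1 were higher in batch 2, and in GMP 7 mitosis genes were lower.

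Mki67, the proliferation marker Ki-67, was at 141 and 137 TPM in batch 1, then at 633 and 718 TPM in batch 2 (2.27 ± 0.153, adjusted p = 1.86e-05; excess 1.87). Ccnb1, the cyclin that drives entry into mitosis, was at 59.8 and 55.7 TPM and then at 314 and 305 TPM (excess 2.89, adjusted p = 0.000191). Cenpf, a kinetochore protein, was at 21.3 and 25.6 TPM and then at 128 and 150.5 TPM (excess 2.51, adjusted p = 0.000291). Top2a, the topoisomerase of condensing chromosomes, was at 232 and 188 TPM and then at 707 and 773 TPM (excess 1.82). In batch 1 no mitosis gene was called between CLP and LMPP, and in batch 2 all 23 were higher in CLP than in LMPP. Leaving out 1 library gave 21 to 23 called members of the mitosis list in the excess, the lowest without CLP batch 1 replicate 2, which ended the calls of Birc5 and Bub1b. With LMPP alone as the reference 17 were called.

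**Figure D4:**
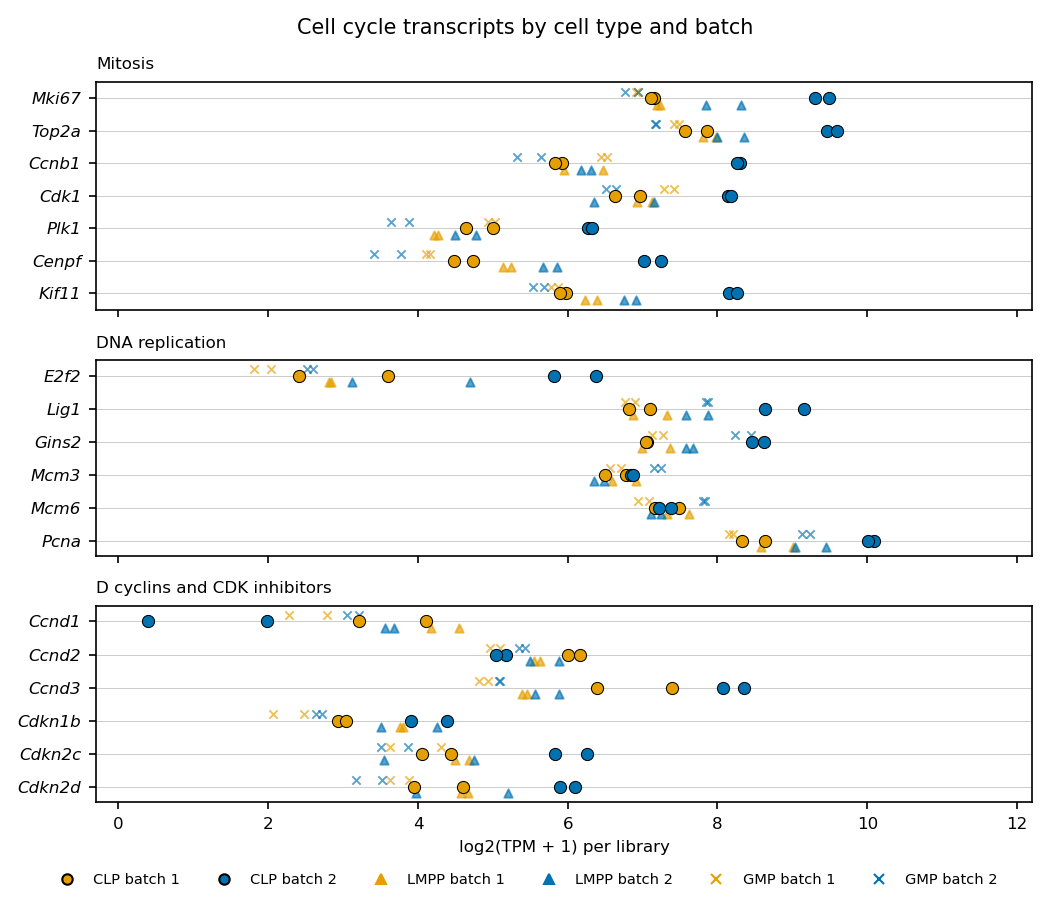
Level of 19 cell cycle transcripts in each library as log2(TPM + 1), with CLP as circles, LMPP as triangles and GMP as crosses, and batch 1 in orange and batch 2 in blue. The 7 mitosis genes shown lie higher in both CLP batch 2 libraries, Mcm6 overlaps between batches, and Ccnd1 and Ccnd2 lie lower in batch 2.

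DNA replication genes shared part of that difference with GMP. Of 30, 17 were higher in CLP batch 2 and none was lower, 13 were higher in GMP batch 2, and 8 were called in the excess. Pcna, the sliding clamp of DNA polymerases, was at 396 and 320.0 TPM in batch 1, then at 1094 and 1030.2 TPM in batch 2 (1.57, adjusted p = 0.000194; excess 0.85, adjusted p = 0.0312). E2f2, an activator of S phase genes, was at 11.1 and 4.31 TPM and then at 55.6 and 82.2 TPM (excess 2.24, adjusted p = 0.0408). Mcm6, a subunit of the replicative helicase, was at 178, 143, 166 and 147 TPM with no call (-0.03, adjusted p = 0.897), and Mcm2, Mcm3 and Mcm7 were not called either. The 17 calls became 11 without CLP batch 1 replicate 2 and 11 under quantile normalization. For the DNA replication list the excess gave 1 call without CLP batch 1 replicate 2, 2 with GMP alone as the reference and 3 under quantile normalization. Pcna kept its excess call in 5 of the 12 fits and E2f2 in 4.

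Replication-dependent histone transcripts were 5 higher and 1 lower of 12 in CLP, and 9 were higher in the excess. In GMP batch 2, 8 of the 12 were lower, 7 of them among those 9. The 9 became 2 with LMPP alone as the reference, 8 with GMP alone and 5 under quantile normalization. The median difference of the list was 0.35 in CLP, -0.47 in LMPP and -1.15 in GMP. Hist1h1c, a linker histone, was at 18.6 and 18.5 TPM in batch 1, then at 118 and 122 TPM in batch 2 (2.63, adjusted p = 3.42e-05; excess 1.81). Hist1h3b was at 82.7 and 95.7 TPM and then at 42.9 and 49.7 TPM, a fall in CLP (-0.93, adjusted p = 0.0124) with a positive excess (1.16, adjusted p = 0.0289). These transcripts mostly lack a poly(A) tail and have near copies, so their values are uncertain. Without CLP batch 1 replicate 2, 2 members of the replication-dependent histone list were called higher in CLP and 2 in the excess, Hist1h3b kept its excess call in 5 of 12 fits, and its CLP call ended without that library (adjusted p = 0.0881). The CLP count was also 2 without CLP batch 2 replicate 2.

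Of 17 tested genes of D cyclins, kinase inhibitors and quiescence, 10 were higher and 2 lower in CLP batch 2, and 2 in each direction were called in the excess. The 10 became 6 without CLP batch 1 replicate 2. Ccnd1 was at 16.2 and 8.25 TPM in batch 1, then at 2.95 and 0.31 TPM in batch 2 (excess -2.40, adjusted p = 0.0265). Ccnd2 was at 70.7 and 62.9 TPM and then at 35.1 and 32.1 TPM (excess -1.20, adjusted p = 0.00593). Ccnd3, the D cyclin that pro-B cells depend on, was at 167 and 83.1 TPM and then at 269 and 326 TPM (1.32, adjusted p = 0.00442; excess 1.06, adjusted p = 0.0649). The inhibitor genes Cdkn2c (excess 2.16, adjusted p = 0.016) and Cdkn2d (1.95, adjusted p = 0.0207) rose, and Cdkn1b rose in CLP only (1.16, adjusted p = 0.0119). Ccnd1 kept its excess call in 6 of 12 fits, and Cdkn2c and Cdkn2d each in 10, with losses without CLP batch 1 replicate 2, CLP batch 2 replicate 2 (Cdkn2c) or GMP batch 2 replicate 1 (Cdkn2d). Cdkn1b lost the CLP call without CLP batch 1 replicate 1, CLP batch 1 replicate 2 or CLP batch 2 replicate 2 (up to 0.0612).

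Cytokine receptor, STAT and survival genes were split, with 4 of 19 higher and 4 lower in CLP batch 2 and 3 lower in the excess. Leaving out CLP batch 1 replicate 2 gave 2 higher calls, and leaving out CLP batch 2 replicate 1 gave 7 lower in CLP and 6 in the excess. The excess gave 1 without either CLP or either GMP library of batch 1, and likewise without GMP batch 2 replicate 1 or LMPP batch 1 replicate 2. Leaving out either GMP library of batch 1 also gave 2 higher calls. Bcl2, an inhibitor of apoptosis, was at 50.5 and 52.5 TPM in batch 1, then at 9.28 and 10.9 TPM in batch 2 (-2.25 ± 0.187, adjusted p = 4.22e-05; excess -2.32, adjusted p = 0.000468). Bcl2l1, which encodes its relative Bcl-xL, was at 5.21 and 3.62 TPM and then at 17.5 and 12.01 TPM (1.53, adjusted p = 0.0349), with no call in the excess. Crlf2, a chain of the thymic stromal lymphopoietin receptor, and Il4ra, the interleukin 4 receptor chain, were the other pair lower in the excess (-1.24 and -1.32). Bcl2 kept its call in all 12 fits, Crlf2 in 3, Il4ra in 6, and Bcl2l1 kept its CLP call in 4.

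Chaperone genes rose in part: 8 of 10 heat shock and unfolded protein response genes were higher in CLP batch 2 and 5 in the excess. Hsp90b1, a chaperone of the endoplasmic reticulum, was at 362 and 319 TPM and then at 842 and 709 TPM (1.18, adjusted p = 0.000657; excess 0.82, adjusted p = 0.0291). Atf4, a stress-response factor, was at 64.7 and 64.9 TPM and then at 127 and 146 TPM (excess 1.04, adjusted p = 0.00474). Under quantile normalization, without CLP batch 1 replicate 2, or with GMP alone as the reference, the heat shock and unfolded protein response list had 1 call in the excess, and under quantile normalization 4 in CLP. Atf4 kept its call in all 12 fits that leave out 1 library and Hsp90b1 in 4.

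Glycolysis genes had 6 of 15 higher in CLP, which became 3 without CLP batch 1 replicate 2 and 3 under quantile normalization, and 1 in the excess, Pgk1. Oxidative phosphorylation genes had 6 of 24 higher (3 under quantile normalization) and 6 lower, with Atp5b and Cox5a the pair called higher in the excess, Cox5a with a lower level in CLP batch 2 (-0.74). Cholesterol synthesis genes had 2 of 17 higher, Cyp51 among them, and interferon response genes 2 of 23 in each direction. Immediate early genes had 2 of 13 higher and 1 lower, genes of megakaryocytes, mast cells and basophils 1 of 11 in each direction, and mitochondrially encoded genes 2 of 13 in each direction. In the MYC network, Myc was at 118, 138, 87.8 and 84.5 TPM, with an excess of -0.90 (adjusted p = 0.0372), while the nucleolin gene Ncl was at 151 and 161 TPM and then at 364 and 303 TPM (excess 0.80, adjusted p = 0.0243). Of the genes named here, Pgk1, Atp5b, Cox5a, Myc and Ncl kept their excess calls in 4, 3, 2, 4 and 7 of the 12 fits that leave out 1 library, and Cyp51 kept its CLP call in 10.

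Most cytosolic ribosomal protein genes were lower in batch 2 of each cell type. In CLP 24 of 30 were lower and none was higher, and in LMPP 22 were lower and none was higher. In GMP 19 were lower and 2 were higher, and the CLP excess gave 3. Summed TPM was 74616 and 85587 in CLP batch 1 and 37167 and 36358 in CLP batch 2, against 40026 to 46329 in batch 2 of the other types. Rpl37 was at 1304 and 1701 TPM in CLP batch 1 and at 397 and 449 TPM in CLP batch 2 (-1.82 ± 0.133, adjusted p = 2.54e-05), beside differences of -1.19 in LMPP and -1.10 in GMP. Rpl37, Rps14 and Rps28 were the 3 called in the excess, and none was without CLP batch 1 replicate 2 or without either GMP library of batch 2. Leaving out CLP batch 2 replicate 1 gave 6. The median of the list was -0.98 in CLP, -0.86 in LMPP and -0.63 in GMP.

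Transcript length moved with the batch in all types as well. When the tested genes were divided by annotated length into 5 classes of like size, the median CLP difference ran from -0.03 in the shortest class to 0.27 in the longest, that of LMPP from 0.03 to 0.23 and that of GMP from 0.06 to 0.34. The excess showed no such trend, with medians between -0.03 and 0.02. Removing the length trend from each library, an alternative added after seeing the data, left 2805 higher and 1453 lower genes in CLP. It left 900 higher and 590 lower in the excess. Small non-coding RNAs also went with the batch: of 96 tested, 34 were lower in CLP batch 2 and 5 higher. Gm27927, a small RNA annotated within Xist so that reads can be shared, was at 442 and 644 TPM in CLP batch 1 and listed at 0 in all 6 batch 2 libraries. The miRNA genes Gm25197, Gm24303 and Gm22692 were likewise listed at 0 in all of batch 2. Gm25197 lies within Trip13 and Gm24303 within Rbm28.

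**Figure D5:**
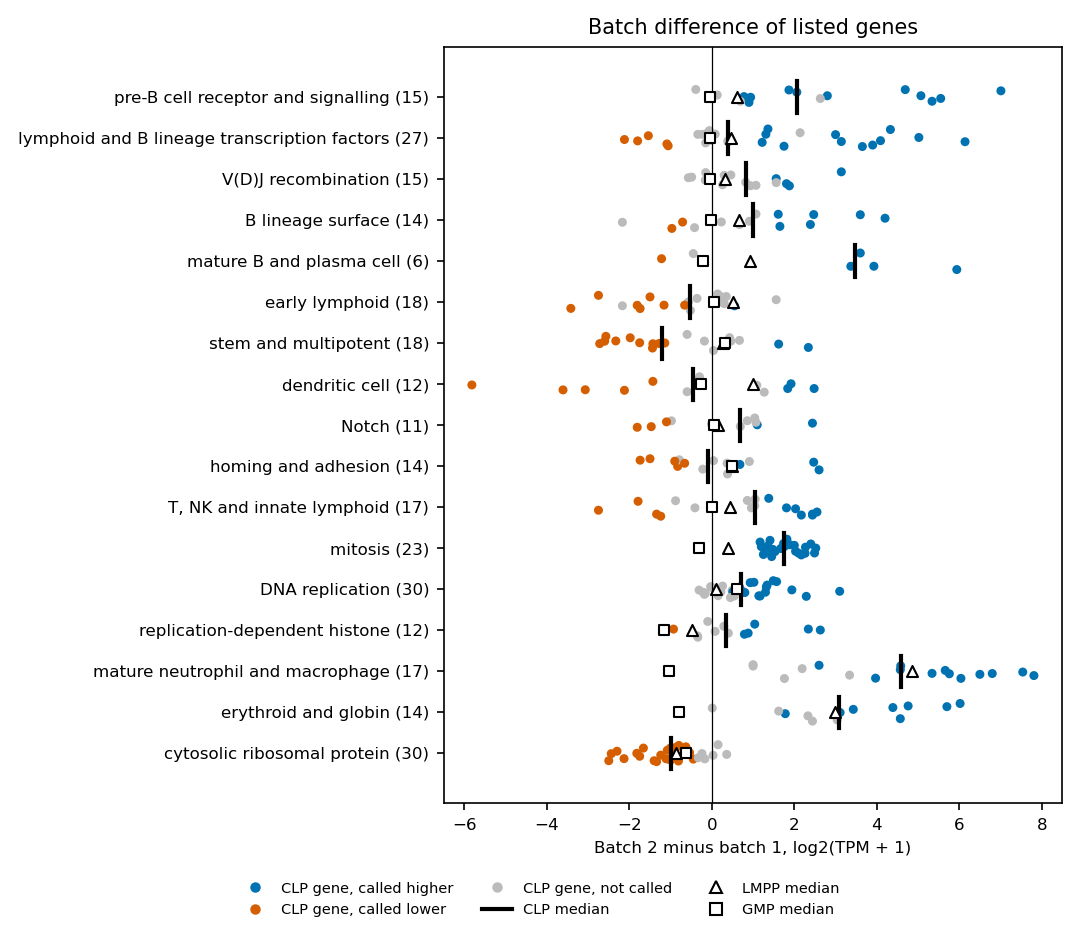
Batch 2 minus batch 1 on the log2(TPM + 1) scale for the tested genes of 17 lists, one point per gene in CLP, coloured by its call, with the CLP median as a bar and the LMPP and GMP medians as a triangle and a square; counts of tested genes are in brackets. The CLP median stands apart from both references for the pre-B cell receptor, stem cell and mitosis lists and lies near that of LMPP for the neutrophil, erythroid and ribosomal protein lists.

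Beyond the lists, the 15 genes with the largest rises called in both CLP and the excess included Cplx2, Akap12, Tnfrsf19, Slamf7, Ptgr1 and Gpat3 beside Lef1, Bst1, Ebf1, Igkc and Elane. Cplx2, a complexin of vesicle fusion, was at 7.12 and 0.18 TPM in batch 1, then at 127 and 139 TPM in batch 2 (excess 4.92, adjusted p = 0.00652). Akap12, an anchor protein of protein kinase A, was at 7.94 and 0.68 TPM and then at 104 and 123 TPM (excess 4.41, adjusted p = 0.00895). Tnfrsf19, a TNF receptor family member that passed the filter through batch 2 alone, was at 0.65 and 0.15 TPM and then at 31.2 and 43.8 TPM (excess 4.58, adjusted p = 0.000369). In all 3 the second batch 1 library was the lowest of the 4.

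Slamf7, a receptor of plasma, NK and dendritic cells, was at 2.64 and 1.83 TPM and then at 93.3 and 77.6 TPM (excess 4.11, adjusted p = 0.00349). Ptgr1, a prostaglandin reductase, was at 4.75 and 1.49 TPM and then at 79.9 and 110.4 TPM (excess 4.19, adjusted p = 0.000903). The set also held Gm5940, a processed pseudogene whose reads can come from a parent gene, Gm45837, which overlaps Arap1, and the variable gene Ighv14-2. Cplx2, Akap12, Tnfrsf19, Slamf7, Ptgr1, Gm5940 and Lef1 kept their excess call whichever library was left out. Gpat3 lost it without CLP batch 2 replicate 2 (adjusted p = 0.06), Gm45837 kept it in 9 of 12 fits, Igkc in 4 and Ighv14-2 in 2.

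Among the 15 largest falls, the protein-coding genes besides Cox6a2 and Siglech were Wfdc17, Bpifc, Bex6, Rasal1, Nos1ap, Nrgn and Wfdc18. Rasal1, a Ras GTPase activator, was at 15.2 and 15.8 TPM in batch 1, then at 0.54 and 0.02 TPM in batch 2 (excess -3.99, adjusted p = 0.000821). Nos1ap, an adaptor of neuronal nitric oxide synthase, was at 33.7 and 40.1 TPM and then at 0.67 and 3.99 TPM (excess -3.47, adjusted p = 0.00496). Nrgn, which encodes the calmodulin-binding protein neurogranin, was at 19.8 and 19.6 TPM and then at 1.31 and 0.29 TPM (excess -2.88, adjusted p = 0.00398). The transcribed pseudogene 9030619P08Rik was at 81.7 and 97.8 TPM and then at 4.34 and 2.78 TPM. It stayed at 75.7 to 115 TPM in LMPP of both batches (excess -3.74, adjusted p = 0.000191). The other 5 were the small RNA genes Gm25731, Snora65, Gm23939, Gm22579 and Gm24539, listed at 0 in both CLP libraries of batch 2, where Gm22579 and Gm24539 hold the same values. Wfdc17 kept its excess call in 4 of the 12 fits, Gm22579 and Gm24539 in 2, and Bex6 lost it without CLP batch 1 replicate 2 (adjusted p = 0.0874).

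Measured against LMPP of the same batch, CLP batch 2 stood further away than CLP batch 1. In batch 1, 214 genes (1.75%) were higher and 550 (4.50%) lower in CLP than in LMPP, and in batch 2 1274 (10.4%) were higher and 1452 (11.9%) lower. Of the pre-B cell receptor and signalling list, 3 of 15 were higher than in LMPP in batch 1 and 12 in batch 2. Of the stem and multipotent list, 7 of 18 were lower in batch 1 and 15 in batch 2. For the early lymphoid list, 9 of 18 were higher and none lower in batch 1, whereas 6 were higher and 7 lower in batch 2. Flt3 did not differ from LMPP by the test in batch 1 (0.42, adjusted p = 0.374) and was lower than in LMPP in batch 2 (-3.39, adjusted p = 0.000105). These contrasts share the CLP and LMPP libraries with the batch differences above.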

How the data were processed

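Bulk RNA-seq of 3 sorted populations in 12 libraries was used as 1 gene by library table of TPM that the authors deposited. The submitters' processing notes name Bowtie2 2.2.0, RSEM 1.2.12, edgeR 3.10.0 and the mouse build mm10, with no role or order stated. TPM keeps no depth, so the depth of each library is unknown. RSEM divides reads among near copies, and whether strand was used is not given, so near copies, antisense and overlapping genes are uncertain. In the table, 17 columns that no label matched were not used. Genes that reached 1 TPM in 2 or more of the 4 CLP libraries were tested. Of these, 301 (2.46%) passed through the batch 2 libraries alone and 437 (3.58%) through those of batch 1 alone. The direction of their CLP difference was fixed by that filter. Tests were on log2(TPM + 1), with a pseudocount of 1, in limma 3.58.1 under R 4.3.3. The model held 1 mean per cell type and batch over all 12 libraries, with a variance trend, two-sided tests and Benjamini-Hochberg adjustment over all 12213 genes. An exact permutation test of 2 against 2 libraries cannot go below p = 0.333 and was not used. The text names the 15 largest differences in each direction called both in CLP and in the excess, without overlap and averaging 10 TPM or more in the higher batch. It also names gate genes and members of the gene lists. Groups came from the labels, and the members and lists were chosen with earlier results of these data known. Alternatives covered pseudocount, filters, scaling, weights, a replicate block, the reference and each left-out library. A few list members are counted but not reported by name here. The fit was tested on simulated data.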

Additional observations from a re-analysis of the deposited data

Results flagged for a closer look

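The batch difference in CLP was set against that in LMPP and GMP within 1 limma model, and the test of that difference itself passed an adjusted p under 0.05 for 918 genes in the positive and 592 in the negative direction. Among the genes of the lists, 13 of those reported here were in addition called in LMPP or GMP in the direction opposite to CLP.

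Of these, 9 had a positive excess. They were the mitosis genes Aurka (1.74), Birc5 (1.83), Ccnb1 (2.89), Cdc20 (2.16), Nusap1 (2.24), Plk1 (1.90) and Ube2c (2.30) and the linker histone genes Hist1h1b (1.53) and Hist1h1e (1.66). All 9 were higher in CLP batch 2 and lower in GMP batch 2. The other 4 had a negative excess: Angpt1 (-1.57), an angiopoietin, the homing genes Ccr9 (-2.48) and Selplg (-1.41), and Lax1 (-1.64), a lymphocyte adaptor. Of the 13, the excesses of Birc5, Hist1h1b and Angpt1 lost the call without CLP batch 1 replicate 2 (adjusted p 0.0699, 0.0688 and 0.0573) and that of Lax1 without CLP batch 1 replicate 1 (adjusted p = 0.0731). What moves these genes in opposite directions was not tested.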

How the results depend on the processing

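Among the 104 named genes called in CLP and the 100 called in the excess, no direction reversed under any alternative tried. Directions of the other called genes were not checked. The count of genes higher in CLP batch 2 was 2884 and moved to 1914 with quantile normalization, 1729 with array weights and 1397 with only the 4 CLP libraries, and ran from 1689 to 3037 with 1 library left out. The count of lower genes was 1461 and moved to 766 with array weights, 575 with only the 4 CLP libraries and 2600 without the haemoglobin-rich pair, and ran from 757 to 2285. For the excess, the 918 higher genes moved to 389 with array weights, 460 with GMP alone as the reference and 1828 without that pair, and ran from 316 to 1499. The 592 lower genes moved to 273, 390 with LMPP alone, 357 with GMP alone and 2150 without the pair, and ran from 201 to 1707. Higher genes were 60.8% of the calls in the excess, 48.9% with quantile normalization (632 and 660) and 48.4% without mitochondrial and ribosomal RNA genes (612 and 652). Of 104 named genes called in CLP, 21 lost the call under at least 1 alternative, and of 100 called in the excess, 65 did, 55 of them without CLP batch 1 replicate 2. The causes were not tested.

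With the replicate number as a block, CLP gave 2849 and 1477 genes and the excess 513 and 329. Within CLP and within GMP, same-numbered libraries of the 2 batches did not deviate together (r = -0.0135 and 0.0299). The numbers were therefore not taken as pairs across batches. Whether same-numbered libraries of different cell types share a source within a batch was not tested. In batch 2 the erythroid and globin sum was 14059 and 2728 TPM in CLP and 29348 and 1526 TPM in LMPP, with replicate 1 first. In GMP it was 130.4 and 284.9 TPM. With 2 libraries a group, a gene's own spread is poorly known, and TPM shows no counting error.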
